A study of Macaca mulatta with 4 samples.

Results

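The metabotropic glutamate receptor genes GRM2, GRM3, GRM4, GRM5, GRM7 and GRM8 were followed through RNA sequencing of single nuclei from the fetal cerebellum of rhesus macaques. They were found by symbol and made up 6 of the 30807 gene rows, with 149989 of the 118538406 unique molecular identifiers (UMIs) counted in 32575 nuclei. GRM5 held 73774 of these UMIs, GRM7 22874, GRM4 20782, GRM3 18201, GRM8 14032 and GRM2 326. Nuclei came from flash-frozen cerebellar hemispheres and part of the midline vermis of 4 fetuses, 1 library each. The 2 Control fetuses, a female and a male of 130 days of gestation, had no intervention. The 2 LPS fetuses, a female of 131 days and a male of 133 days, had received 1 mg of lipopolysaccharide (LPS, a bacterial wall component) in the amniotic fluid. By the study's methods, delivery was by cesarean section days after the injection. The methods name no saline injection of Control animals, whereas the study's results section speaks of a placebo. The libraries are named Control female, Control male, LPS female and LPS male below, and sets of 4 values follow this order.

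Metabotropic glutamate receptors are G protein-coupled receptors for the transmitter that most cerebellar neurons release or receive. GRM5 belongs to group I, which acts through Gq on phospholipase C and calcium stores. GRM2 and GRM3 form group II, and GRM4, GRM7 and GRM8 belong to group III. Both of these groups act through Gi/o proteins, lower cyclic AMP, and often sit on nerve terminals where they restrain transmitter release. In the mature cerebellum GRM2 is known as a receptor of Golgi cells and GRM4 as a receptor of the granule cell axons, the parallel fibers.

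Of the nuclei, 9254, 8621, 6896 and 7804 came from the respective libraries, with a median of 4506.5, 1882, 4063 and 2308.5 UMIs. Female libraries were deeper per nucleus than male libraries, in both groups. Levels are given as CPM, the UMIs of a gene scaled to a common total of UMIs in the same nuclei. UMIs in introns were counted too and no gene lengths of this build were used, so levels were compared between cell classes and libraries and not between genes. The 23 clusters were named from marker lists that did not hold the receptor genes, into 14 classes, and each name stands for nuclei that were like that cell type by these markers. In the cluster named microglia all 8 markers were raised, but 1 of them, APBB1IP, was among its 10 leading genes, which also held F13A1, MRC1, HPGDS and CD36, known from macrophages at the borders of the brain. Microglia and such macrophages were not separated. Granule nuclei were divided into 7 stages, from S-phase precursors to mature cells. A cluster of 2443 nuclei with few UMIs, of which 1919 came from LPS male, stayed unnamed, and so did a cluster of 665 nuclei of which 68.1% were called doublets. Between 16 and 21 barcodes were shared by each pair of libraries. Free RNA was read from barcodes with at most 100 UMIs (empty droplets).

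Each receptor gene had its own distribution over the cell classes. GRM4 was a gene of the granule lineage, GRM7 of Purkinje cells and astroglia, and GRM3 and GRM8 of Golgi cells. This goes by the highest mean over libraries. In LPS male, endothelial cells stood above Golgi cells for GRM3 and GRM8. GRM5 was shared by later granule cells and the oligodendrocyte lineage. GRM2 was found in few nuclei, with its highest mean in Golgi cells, although unipolar brush cells stood above them in LPS female. Classes came from clusters of the same nuclei, so these levels are a description without a test.

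**Figure D1:**
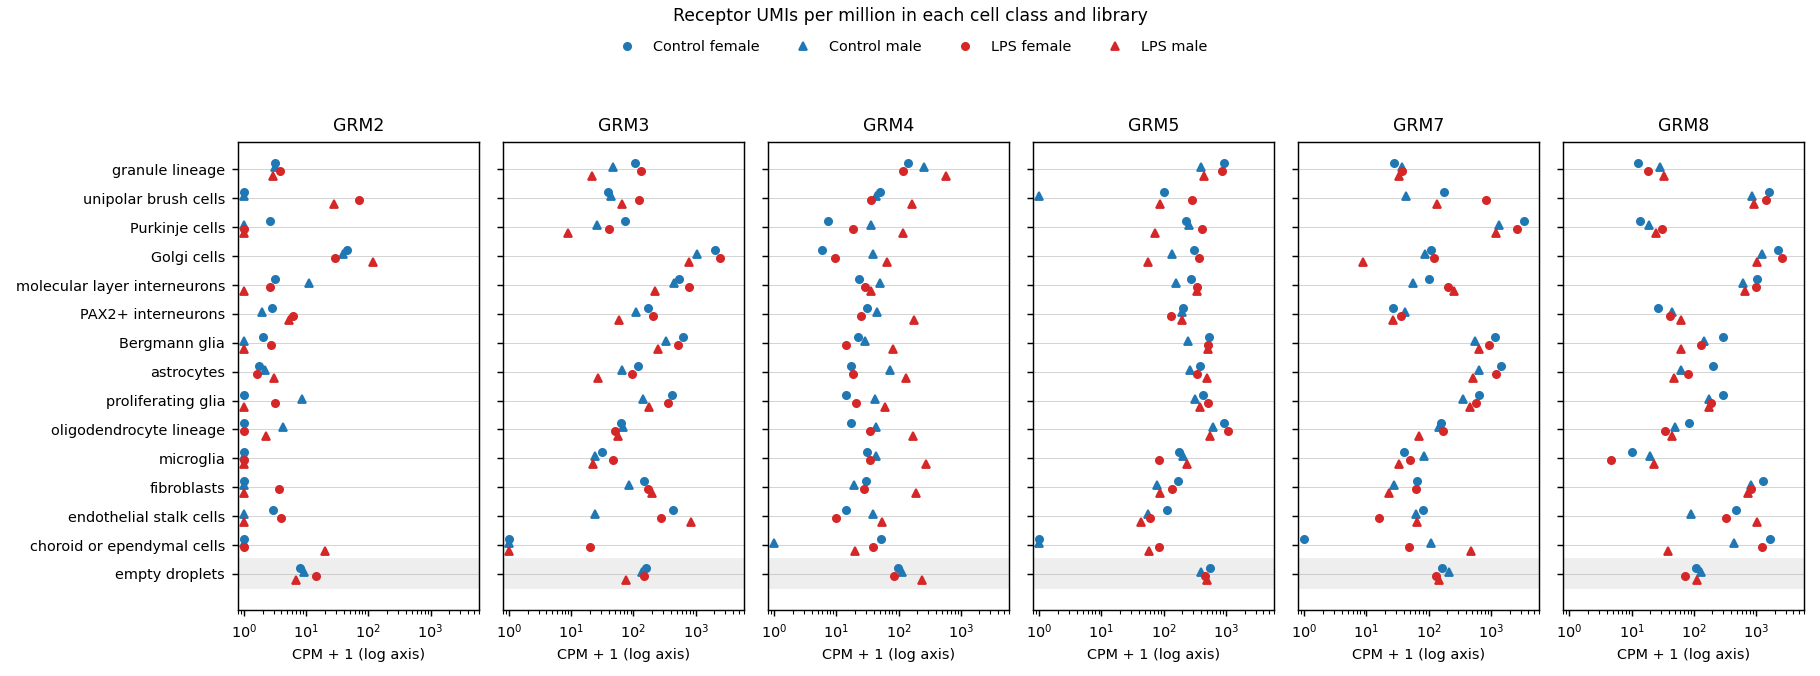
CPM plus 1, on a log axis, of the 6 receptor genes in each of the 14 cell classes and in empty droplets (shaded row). Each point is 1 library, blue for Control and red for LPS, circles for female and triangles for male fetuses; GRM7 in Purkinje cells lies between 1214 and 3454 CPM, against 131 to 215 CPM in empty droplets.

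GRM5, the group I member, varied widely over the granule lineage. It had 44.2, 67.3, 29.8 and 117 CPM in migrating granule cells. In later granule cells it had 1835, 824, 1964 and 850 CPM, the highest level of the 7 stages in every library. The level was lower again in mature granule cells, at 1210, 386, 1261 and 366 CPM. Within a library, later cells thus had 41.5, 12.2, 65.9 and 7.28 times the level of migrating cells. Precursors in S phase, at 129 to 178 CPM, stood above migrating cells in every library. Both stages were under the level of free RNA in every library, and its part in these levels and ratios was not tested. The ranges of the 3 oldest stages overlapped each other, and the lowest library of the mature stage was above every library of the 4 younger stages.

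Among later granule nuclei, 99.6, 68.7, 98.9 and 85.3% held at least 1 GRM5 UMI. After thinning each nucleus to 1000 UMIs, which left out 0, 45, 1 and 3 shallower nuclei, these shares were 80.1, 48.4, 81.6 and 51.5%, and the male libraries were still the lower ones. The same thinned share was 0 to 12.9% in endothelial cells, taken here as a type that should lack the gene. Empty droplets held 560, 403, 470 and 495 CPM of GRM5, as much as many whole classes, and the levels of microglia (82.8 to 233 CPM) and endothelial cells (42.0 to 111 CPM) lay under them. The younger granule stages, from S phase to migrating, also lay under them in every library, and mature granule cells did in both male libraries.

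**Figure D2:**
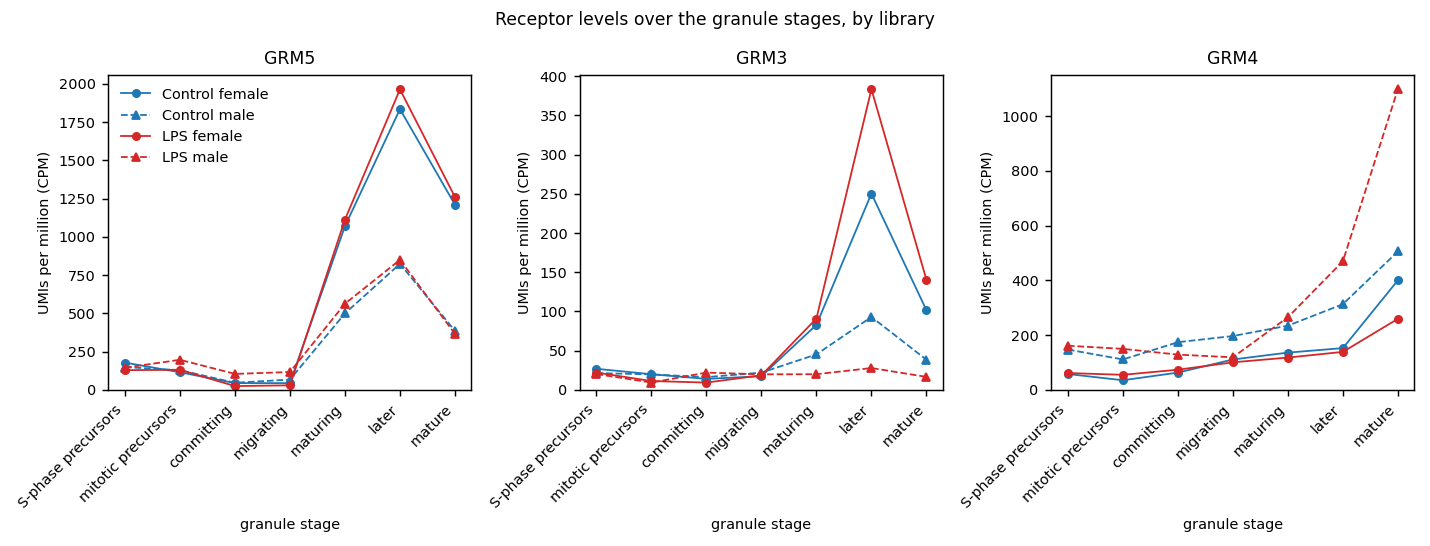
CPM of GRM5, GRM3 and GRM4 over the 7 granule stages, from precursors to mature cells, with 1 line per library (blue Control, red LPS, solid female, dashed male). GRM5 and GRM3 peak in the later stage, with both female libraries above both male ones, and GRM4 is highest in the mature stage, at 260 to 1099 CPM.

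In the oligodendrocyte lineage GRM5 had 934, 614, 1064 and 563 CPM, mean 794 ± 243 (SD, n = 4). This was the highest mean of any class, above the 657 ± 273 CPM of the granule lineage as a whole, with overlapping ranges. Astroglia followed. Bergmann glia, which guide granule cell migration, had 536, 250, 517 and 512 CPM, proliferating glia 320 to 522 CPM and astrocytes 268 to 504 CPM. Bergmann glia stood above the empty droplets in both LPS libraries and under them in both Control libraries. Astrocytes were under the empty droplets in all libraries but LPS male, and proliferating glia in all but LPS female. The thinned share of Bergmann glia with a GRM5 UMI was 18.6 to 35.8%, against 4.92 to 12.2% in microglia. The part of free RNA in these levels was not tested. Interneurons differed among themselves. In the molecular layer class, the cluster led by NXPH1 and SCUBE1 had 552, 227, 624 and 624 CPM. The cluster led by SORCS3 and ADARB2 had 122, 90.8, 69.6 and 69.7 CPM, lower in every library. The 10 leading genes of the NXPH1 cluster also held SLC6A5, a marker from the Golgi list. By its markers this cluster scored 4.30 for molecular layer interneurons and 3.77 for Golgi cells, so its name is less certain.

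GRM3, of group II, is known in the adult brain from astrocytes as well as neurons. Here its highest mean level was in Golgi cells, the inhibitory interneurons of the granular layer. They had 2016, 1043, 2456 and 767 CPM of GRM3, and 42 of 42, 79 of 85, 53 of 53 and 15 of 15 nuclei held a UMI of the gene. This was 3.71, 2.30, 3.17 and 3.43 times the level of molecular layer interneurons, which had 543, 454, 774 and 224 CPM. Golgi cells were few (15 to 85 nuclei per library) and deep, with a median of 3923 to 13773.5 UMIs. In LPS male, endothelial cells had more GRM3 than Golgi cells, at 841 CPM.

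Bergmann glia had 628, 336, 516 and 251 CPM of GRM3, against 117, 65.5, 94.9 and 25.9 CPM in other astrocytes. The ratio of these astroglial classes was 5.39, 5.12, 5.43 and 9.68 in the respective libraries, and their ranges did not overlap. Proliferating glia, at 143 to 418 CPM, were on the side of Bergmann glia. Empty droplets held 74.3 to 160 CPM, so that the astrocyte level was under free RNA in every library.

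GRM3 in granule cells was highest in the later stage, over a smaller range than GRM5. In the later stage it had 250, 93.0, 384 and 27.9 CPM, and in the migrating stage 17.5, 22.0, 18.6 and 19.8 CPM. The rise was 14.3-fold and 20.7-fold in the female libraries and 4.23-fold and 1.41-fold in the male ones, the smallest in LPS male. The migrating level was far below that of empty droplets. The later level stood above free RNA in the female libraries, whose droplets held 160 and 144 CPM, and under it in the male ones, whose droplets held 138 and 74.3 CPM.

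GRM2, the other group II member, is the classical receptor of Golgi cells. It had 45.2, 38.5, 28.6 and 119 CPM in Golgi cells, from 28, 15, 17 and 15 UMIs. Golgi cells held 17.5 to 27.8% of all its UMIs, against 0.57 to 1.93% of the UMIs of all genes. The granule lineage held 41.5 to 60.9% of the GRM2 UMIs, against 60.2 to 68.8% of those of all genes. Other classes had at most 19.0 CPM in any library, apart from unipolar brush cells, and empty droplets 5.94 to 13.6 CPM. Of the Golgi nuclei, 16, 13, 14 and 10 held a GRM2 UMI, and all of these but 1 in Control female also held GRM8. Since 41 of 42, 80 of 85, 52 of 53 and 14 of 15 Golgi nuclei held GRM8, nothing is read from this overlap. Unipolar brush cells, excitatory interneurons of the granular layer, had 0 UMIs of GRM2 in both Control libraries and 4 and 5 UMIs in LPS female and LPS male. These were 70.6 and 27.1 CPM, with exact 95% Poisson intervals of 19.2 to 181 and 8.79 to 63.2 CPM that cover counting error only. With 21 and 8 nuclei, the counts of 0 in Control female and Control male allow levels of up to 16.5 and 128 CPM. The interval of LPS male reaches below both limits, and the 4 UMIs of LPS female came from 2 nuclei. The class had too few nuclei for a test. Granule nuclei, at 1.96 to 2.75 CPM, lay under free RNA.

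GRM4, a group III receptor, followed the granule lineage. Granule nuclei held 83.7 to 89.9% of its UMIs per library, against 60.2 to 68.8% of all UMIs. The level was 63.1, 174, 73.7 and 129 CPM in committing cells and 400, 506, 260 and 1099 CPM in mature granule cells, 6.34, 2.90, 3.52 and 8.53 times as high. The later stage was in between, at 153, 313, 139 and 470 CPM. The mature stage was the highest of the 7 in each of the 4 libraries, and its range overlapped that of the later stage. The level in empty droplets was 96.4, 112, 82.6 and 234 CPM, and the granule lineage as a whole had 1.47, 2.26, 1.43 and 2.45 times that.

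In Control female and LPS female, the other 13 classes had 4.85 to 52.1 CPM of GRM4, under free RNA. In LPS male, where free RNA held the most GRM4, microglia had 277 CPM from 51 UMIs in 45 nuclei, fibroblasts 190 CPM, interneurons of the PAX2+ class 178 CPM and the oligodendrocyte lineage 173 CPM. Of these, the microglia level alone stood above the empty droplets of that library, and its exact 95% Poisson interval of 206 to 364 CPM, which covers counting error only, holds the level of the droplets.

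GRM7, a group III receptor of presynaptic active zones, was highest in Purkinje cells, the output neurons of the cerebellar cortex. They had 3454, 1369, 2667 and 1214 CPM, which was 20.9, 6.37, 20.4 and 8.25 times the level of empty droplets. The class held 32, 56, 24 and 17 nuclei. The female libraries lay above the male ones and the Control and LPS libraries overlapped. Astrocytes came next, at 1433, 645, 1212 and 515 CPM, and Bergmann glia had 1158, 547, 944 and 635 CPM. These astroglial classes overlapped, with astrocytes above Bergmann glia in 3 libraries and below in LPS male. Proliferating glia had 351 to 640 CPM. Astrocytes and Bergmann glia each held more of the UMIs of this gene than any neuronal class, with a mean of 29.8% and 26.3%, against 15.6% in Purkinje cells. The granule lineage had 26.9 to 36.3 CPM, with no stage over 50.2 CPM in any library, under the 131 to 215 CPM of free RNA.

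GRM8, the third group III member, reached its highest mean levels in interneurons and in cells of the meninges. Golgi cells had 2229, 1249, 2612 and 1021 CPM and unipolar brush cells 1634, 855, 1431 and 932 CPM. In LPS male, endothelial cells stood slightly above Golgi cells, at 1030 CPM. In unipolar brush cells, 74 of 75 nuclei held a UMI of it, over libraries of 8 to 37 nuclei. Molecular layer interneurons had 1021, 608, 1018 and 654 CPM. Here the split of the class was opposite to that of GRM5, with 1412, 889, 1560 and 1163 CPM in the SORCS3 cluster and 296, 320, 452 and 151 CPM in the NXPH1 cluster. PAX2+ interneurons, their immature relatives, had 26.1 to 60.6 CPM and granule cells 11.9 to 32.9 CPM, both under the free RNA level of 72.2 to 128 CPM.

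Outside neurons, fibroblasts had 1309, 843, 816 and 751 CPM of GRM8 and 66.4, 61.5, 53.8 and 52.5% of their nuclei held a UMI. Microglia, with 1 to 4 UMIs per library, had 1.64 to 8.89% such nuclei at a median of 2136 to 3845 UMIs, against 2821.5 to 4612 in fibroblasts. Choroid or ependymal cells, 2 to 22 nuclei per library, ranged from 37.9 to 1668 CPM, and in Control female all 32 UMIs came from 1 nucleus.

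Endothelial cells had 476, 88.6, 333 and 1030 CPM of GRM8 and 432, 23.3, 279 and 841 CPM of GRM3. For both genes this was the largest SD between libraries among the 10 classes with at least 20 nuclei in every library. No cluster took the name of mural cells, the pericytes and smooth muscle cells of vessel walls. In the endothelial class, the nuclei with a GRM8 UMI (24, 6, 10 and 11) held 2176, 2673, 1453 and 3441 CPM of the 7 mural markers together. The nuclei without one held 373, 340, 308 and 140 CPM of these markers. Of the GRM3 UMIs of the class, 197 of 225, 2 of 5, 88 of 94 and 75 of 80 lay in the nuclei with GRM8. Endothelial markers were also present there, at 7243 to 8434 CPM against 9153 to 10831 CPM in the rest. How many mural nuclei the class holds in each library, and their part in its GRM3 and GRM8 levels, was not tested.

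Receptors occurred together in single nuclei of several classes. In Golgi cells, 41 of 42, 75 of 85, 52 of 53 and 14 of 15 nuclei held UMIs of both GRM3 and GRM8. In Bergmann glia, 82.7, 24.4, 69.5 and 27.1% of nuclei held both GRM7 and GRM3, and 63.7, 19.0, 56.0 and 41.9% held both GRM7 and GRM5. In mature granule cells, 74.0, 27.4, 57.4 and 48.9% of nuclei held both GRM4 and GRM5. In these pairs of genes the deeper female libraries had the higher shares, but LPS male had the highest share of later granule cells with both GRM4 and GRM5 (53.1, 31.5, 47.0 and 58.2%) and of Golgi cells with both GRM2 and GRM8 (35.7, 15.3, 26.4 and 66.7%). The part of depth in these shares was not tested.

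The genes whose pattern was most like that of each receptor were found by Pearson's r of log2(CPM + 1). The 20 units were the granule stages and every named class other than the granule lineage. Classes of few nuclei, such as unipolar brush cells and choroid or ependymal cells, were kept in. These units share libraries and free RNA, so r is a description. For GRM4 they were TRHDE (r = 0.88), an ectoenzyme for thyrotropin-releasing hormone, KCNJ3 (0.86), a subunit of the potassium channels that Gi/o proteins open, and ENSMMUG00000045821 (0.86). For GRM5 they were CSMD2 (0.90), PCDH9 (0.88), a protocadherin, and the potassium channel gene KCNK10 (0.86). For GRM7 they were WNT3 (0.86), TSPAN2 (0.86) and ADCY2 (0.85), an adenylyl cyclase. For GRM8 they were OSBPL5 (0.84), NPAS2 (0.82) and PHACTR2 (0.81). GRM3 and GRM2 had less close partners, with ENSMMUG00000039609 (0.78), PDXDC1 (0.78) and RAB6B (0.75) for GRM3 and GPC6 (0.75), MPP3 (0.72) and SLC6A15 (0.72) for GRM2.

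Control and LPS libraries were then compared within each class and stage, the question being whether prenatal inflammation changed receptor expression. UMIs were summed per class and library and tested with edgeR's quasi-likelihood test, and a gene was called where the adjusted p was under 0.1 and the log2 fold change was beyond 0.25 in either direction. No receptor gene was called in any of 10 classes and 7 stages with at least 20 nuclei in every library, in 84 tests. The background was the same, at 0% of all genes called in each. At an unadjusted p under 0.05, edgeR found 2 of the 84 receptor tests, and over all genes 590 of 87955 tests in classes and 233 of 74246 in stages. DESeq2 called 5 genes over the classes and 3 over the stages, none of them a receptor. With the sex of the fetus as a block, edgeR called 21 genes over the classes and 105 over the stages, GRM4 in the oligodendrocyte lineage among them. With 2 fetuses per group an exact permutation test cannot go below p = 0.333. In the fit without sex, standard errors of the log2 fold changes of the receptors ran from 0.30 to 1.25, median 0.57, so that it could not detect moderate differences. That fit counts differences between male and female libraries as spread between fetuses. With the block, edgeR gave an unadjusted p under 0.05 in 2816 of 87955 tests of all genes in classes. Golgi cells and Purkinje cells had 15 or more nuclei in every library and were tested as an addition, with 0% of genes called.

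**Figure D3:**
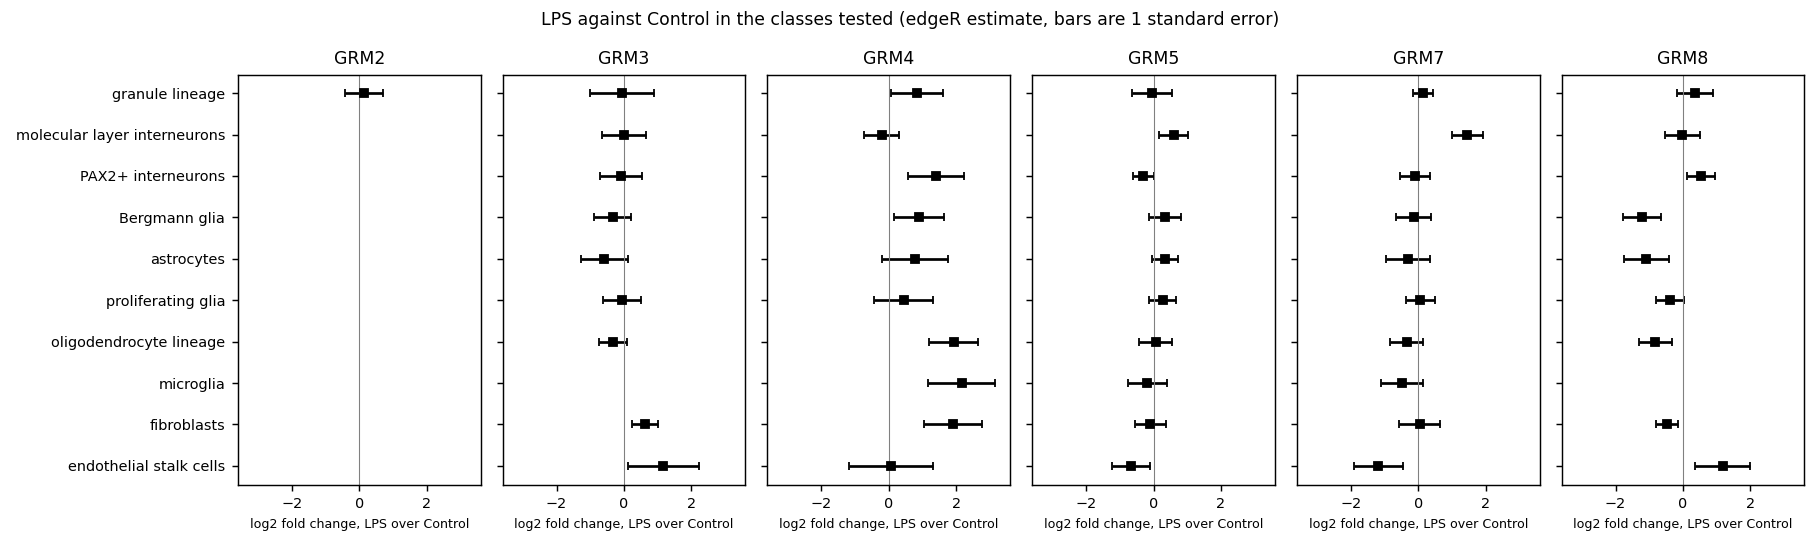
Log2 fold change of LPS over Control (edgeR estimate, bars of 1 standard error, 2 libraries per group) of each receptor gene in the 10 tested classes, 1 panel per gene; genes with too few UMIs in a class have no point. GRM7 in molecular layer interneurons, at 1.46, and GRM4 in the oligodendrocyte lineage, at 1.92, had an unadjusted p under 0.05, and no point passed the adjusted test.

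In the granule lineage GRM5 had a log2 fold change of -0.04 (SE 0.59) and GRM3 of -0.05 (SE 0.95), and within each group the male library was well under the female one. For GRM7 the value was 0.14 (SE 0.30), for GRM2 0.14, and for GRM8 0.36 (SE 0.54). GRM4 had 142, 253, 118 and 573 CPM in the lineage, a log2 fold change of 0.83 (SE 0.78, edgeR adjusted p = 1.00). LPS male was the highest and LPS female the lowest library, so the groups overlapped. The mature stage, where GRM4 is highest, made up 34.4% of the granule nuclei in LPS male and 6.33 to 7.65% in the others. With equal weight for each of the 7 stages the levels were 137, 240, 115 and 342 CPM, with LPS male the highest. The part of the stage make-up in the GRM4 level was not tested.

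GRM7 in molecular layer interneurons was a receptor test with an unadjusted p under 0.05. The levels were 99.2, 54.0, 200.3 and 254 CPM, with both LPS libraries above both Control libraries, and a log2 fold change of 1.46 (SE 0.45, edgeR adjusted p = 1.00). Free RNA of GRM7 stood above both Control levels and under both LPS levels, and its part was not tested. In the LPS libraries most of the UMIs lay in the NXPH1 cluster, whose leading genes also held SLC6A5 of the Golgi list. Its share was 87 of the 124 UMIs of the class in LPS female and 182 of 220 in LPS male. In Control female it was 37 of 93 and in Control male 10 of 27. In LPS female, 79 of these UMIs came from 1 nucleus of 24577 UMIs. Without the nucleus richest in GRM7 in each library, the levels were 81.2, 46.6, 75.7 and 211 CPM. LPS female then no longer stood above Control female or above free RNA. In LPS male, 9 of the 76 nuclei of that cluster had 5 or more UMIs of GRM7 and held 164 of its 182 UMIs, whereas 1 nucleus held 18 of its 37 UMIs in Control female and the richest had 3 in Control male.

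GRM4 in the oligodendrocyte lineage was the other such test, at 16.4, 41.8, 33.2 and 173 CPM and a log2 fold change of 1.92 (SE 0.73, edgeR adjusted p = 1.00). LPS female lay between the Control libraries, and the value without LPS male was 0.36. Against the Control library of the same sex, the log2 ratio of CPM plus 1 was 0.97 in LPS female and 2.02 in LPS male. With the sex of the fetus as a block in the fit, the gene was called, at 1.60 (SE 0.38, edgeR adjusted p = 0.074). GRM4 in microglia (2.16, SE 1.00), fibroblasts (1.91, SE 0.86) and PAX2+ interneurons (1.41, SE 0.83) had the same make-up, with LPS male alone above the Control libraries. In the same library the empty droplets held 234 CPM of GRM4, against 82.6 to 112 CPM in the others, and the part of free RNA in these values was not tested.

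GRM8 in Bergmann glia had 295, 144, 128 and 61.6 CPM, lower in both LPS libraries than in both Control libraries, with a log2 fold change of -1.22 (SE 0.57, edgeR adjusted p = 1.00). Against the Control library of the same sex, the log2 ratio of CPM plus 1 was -1.20 in LPS female and -1.21 in LPS male. Without Control female the log2 fold change was -0.44. Both Control levels were above free RNA and the LPS male level was under it, and the part of free RNA was not tested. In astrocytes the levels were 202, 62.0, 80.9 and 47.7 CPM, and the groups overlapped, with same-sex log2 ratios of -1.31 and -0.37. The male astrocyte levels were under free RNA. Over the granule stages, Control and LPS libraries did not overlap in 7 of 35 receptor tests, against 11951 of 74246 tests of all genes. Over the classes they did not overlap in 7 of the 49 tests of a receptor, against 19.1% of the tests of all genes. Besides GRM8 in Bergmann glia and GRM7 in molecular layer interneurons, these were GRM5 in molecular layer interneurons, and GRM3 and GRM8 in the oligodendrocyte lineage and in fibroblasts. GRM5 in molecular layer interneurons and GRM3 in the oligodendrocyte lineage were under free RNA in every library, whereas GRM8 in fibroblasts was above it.

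In endothelial cells GRM3 and GRM8 had log2 fold changes of 1.17 (SE 1.05) and 1.17 (SE 0.81). Control male was the lowest and LPS male the highest library for both. Without Control female they were 4.58 and 2.98 and both passed the adjusted test, against a Control group of 1 library. In Golgi cells GRM3 had a log2 fold change of 0.10 (SE 0.80), GRM8 of 0.08 (SE 0.77) and GRM2 of 0.53 (SE 0.68). GRM7 in Purkinje cells had -0.39 (SE 0.85).

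Genes around the receptors were followed as a list of 38, with G proteins, phospholipases, adenylyl cyclases, potassium channel subunits, scaffolds such as the HOMER and SHANK genes and regulators of G protein signaling. Between 19 and 34 of them could be tested in a class or stage. edgeR called 0 in any, and 6 of 264 tests in the classes had an unadjusted p under 0.05, beside the 590 of 87955 tests of all genes. Of these 6, 4 were among the 24 genes of the list tested in fibroblasts, where edgeR gave such a p in 158 of 8608 tests of all genes. The median log2 fold change of the list ranged from -0.30 in fibroblasts to 0.40 in microglia. That of all genes ranged from -0.01 to 0.02, but it is held near 0 by the scaling and rests on many more genes, so nothing is read from the wider range of the list.

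The larger separation among the libraries was between male and female fetuses, and it ran through the receptor genes. Sex cannot be told apart from other differences that the libraries share in the same way. Both male libraries had the lower median UMI number, and a mean mitochondrial share of 0.0196 and 0.0277% of UMIs against 0.208 and 0.171% in the female ones. In a fit with condition and sex, added after the data were seen, 19 of 49 receptor tests in the classes were called between male and female libraries, 15 lower and 4 higher in the male ones. The background was 16.3% of all genes over the classes. By class it was 25.8% in the granule lineage, 22% in PAX2+ interneurons, 20.5% in molecular layer interneurons, 15.6% in Bergmann glia, 20.2% in astrocytes and 15% in proliferating glia. It was 18.4% in the oligodendrocyte lineage, 2.79% in microglia, 1.63% in fibroblasts and 2.82% in endothelial cells.

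GRM3 was lower in male libraries in each of the 6 classes in which it was called. The log2 difference was -2.02 (SE 0.37, edgeR adjusted p = 0.053) in the granule lineage, -1.16 (SE 0.18) in Bergmann glia and -1.45 (SE 0.28) in astrocytes. In the granule lineage and in astrocytes the GRM3 level was under that of free RNA in every library, and in Bergmann glia above it in every library. GRM7 was lower in 4 astroglial and oligodendroglial classes, with -1.37 (SE 0.19, adjusted p = 0.023) in astrocytes and -1.02 (SE 0.22) in Bergmann glia. GRM5 was lower in the granule lineage, at -1.16 (SE 0.21), and in the oligodendrocyte lineage, at -0.90 (SE 0.26). Its granule level was above free RNA in both female libraries and under it in both male ones, and the oligodendrocyte level was above it in every library. GRM4 had the opposite direction, higher in the male libraries by 2.33 (SE 0.28, adjusted p = 0.017) in astrocytes and 1.86 (SE 0.37) in the oligodendrocyte lineage, classes where its level was under that of free RNA in every library. GRM8 was lower in Bergmann glia by -1.24 (SE 0.19) and higher in granule cells by 1.01 (SE 0.18), where it too was under free RNA.

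**Figure D4:**
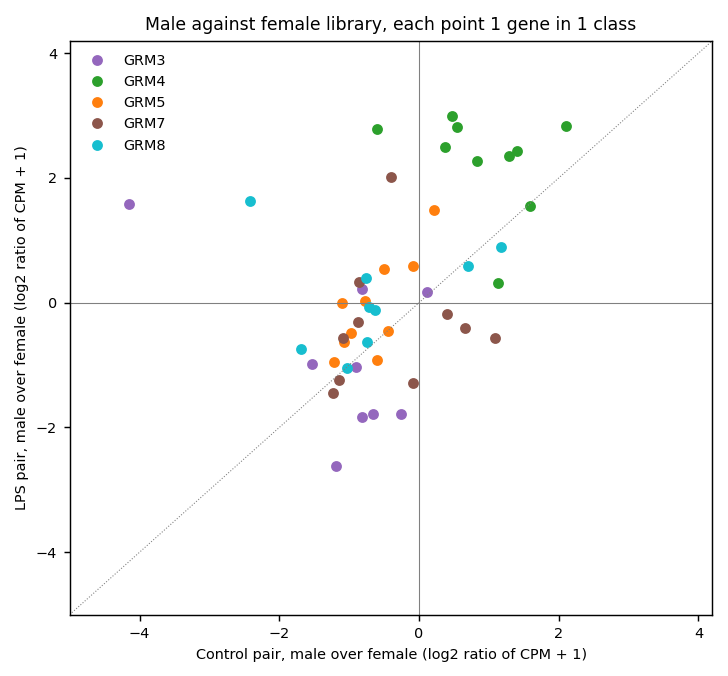
Log2 ratio of CPM plus 1 of the male over the female library in the Control pair (horizontal axis) and in the LPS pair (vertical axis), for 5 receptor genes in the tested classes, each point 1 gene in 1 class. GRM4 lies above 0 in the Control pair in 9 of 10 classes and in the LPS pair in all 10, and GRM3 under 0 in 8 of 9 and 6 of 9; the dotted line marks equal ratios.

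Across the granule stages, 15 of 35 receptor tests were called between male and female libraries, against 25.8% of all genes. By stage this background was 35.2% in S-phase precursors, 23.6% in mitotic precursors, 32.9% in committing, 29.7% in migrating, 30.8% in maturing, 25.8% in later and 0.61% in mature granule cells. Of these calls, 4 were lower and 11 higher in the male libraries, where the classes had 15 and 4. The higher ones were 5 of GRM4, 4 of GRM8 and 2 of GRM5, and GRM8 was under free RNA in every stage and library. GRM4 was under free RNA in every library in mitotic precursors, and in all but Control male in S-phase precursors and committing cells. It was above free RNA in every library in maturing and later cells. The droplets of both male libraries held more GRM4 than those of both female ones, and their part was not tested. For GRM5 the called differences had both signs. It was higher in male libraries by 0.99 (SE 0.31) in committing and 1.17 (SE 0.35) in migrating cells, and lower by -1.21 (SE 0.18) in maturing and -1.38 (SE 0.18, edgeR adjusted p = 0.035) in later cells. In committing and migrating cells, at 24.7 to 117 CPM, GRM5 was under the 403 to 560 CPM of free RNA in every library. In the other stages it was not called, at -0.13 in S-phase precursors, 0.29 in mitotic precursors and -1.89 (SE 0.24, edgeR adjusted p = 0.13) in mature cells. GRM3 was lower by -2.75 (SE 0.59) in later cells, and GRM4 was higher by 1.20 (SE 0.25) there.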

How the data were processed

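The authors sequenced 10x 3' nuclei libraries and mapped the reads, introns included, to Mmul_8.0.1 with Cell Ranger, version 5.0 by the protocol and 4 by the submitters' processing notes. The deposited values are raw UMI counts per gene and barcode, unfiltered, and ambient RNA was not subtracted. Nuclei were barcodes of 500 or more genes with a mitochondrial share of UMIs no higher than 5%. The 4 libraries were integrated by anchors in Seurat 5.3.0 (2000 variable features less 4 receptor genes among them, which left 1996, 30 dimensions, resolution 0.5). Clusters took the class with the highest mean log2 difference of its markers. This scoring, with its margins for shallow and doublet-rich clusters, was set after the data were seen. Doublets were called by Scrublet in scanpy 1.11.5 and kept. Its threshold failed in both male libraries, where the median of the others was used. Summed counts were tested with edgeR 4.0.16 (quasi-likelihood test, filterByExpr, TMM, Benjamini-Hochberg adjustment, two-sided). DESeq2 1.42.0 was an alternative. The test was also run on simulated counts with a fixed spread and no difference between male and female libraries, unlike these data. Intervals are exact, at 95%, and cover counting error only, and where a count is 0 the limit is 3 counts. Total UMIs per library were 34282015 to 61665690. The fetus was the replicate, with 2 per group. Sex came from the labels. The members and lists were chosen with earlier results of these data known. The genes most like a member were the 3 with the highest r among genes of 50 CPM or more in a class or stage. Genes named for an unadjusted p or for 1 nucleus were chosen after their values were seen. R was 4.3.3. Some genes of the list around the receptors are not reported here.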

Additional observations from a re-analysis of the deposited data

Results flagged for a closer look

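Within the female and the male pair of libraries, LPS over Control differed in sign for some receptor levels (log2 ratio of CPM plus 1, 1 library on each side). This difference between the pairs was not tested, since each pair holds 1 fetus per group. GRM3 was 0.29 in the female and -1.14 in the male pair in the granule lineage, 0.61 and -1.70 in later granule cells, 0.51 and -1.02 in molecular layer interneurons, and 0.29 and -0.44 in Golgi cells. GRM4 had the opposite pattern, with -0.27 in the female and 1.18 in the male pair in the granule lineage, and -0.62 and 1.12 in mature granule cells.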

How the results depend on the processing

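The count of 0 genes between Control and LPS was the same with RLE size factors, in nuclei with 1000 or more genes and with doublets removed. Over the classes and the stages, DESeq2 called 5 and 3 genes, edgeR without a filter on low counts 92 and 45, and edgeR with the sex of the fetus as replicate block 21 and 105. Leaving out 1 library called 90 to 241 genes over the classes and 15 to 140 over the stages, with a lone library assumed to vary like the other group. Fetuses share sex across groups and no other label pairs them. With the block, GRM4 in the oligodendrocyte lineage was called (log2 fold change 1.60, edgeR adjusted p = 0.074) and no other receptor was. Same-sex libraries deviated together, with r of 0.27 to 0.64 over the genes of a class. Without LPS replicate 2 (LPS female), GRM4 was called in the oligodendrocyte lineage, PAX2+ interneurons and microglia (2.62, 2.22 and 3.02). Without Control replicate 1 (Control female), GRM3 and GRM8 were called in endothelial cells. Signs turned for GRM2 in the granule lineage (-0.0067 in nuclei with 1000 or more genes), GRM5 in the granule lineage (0.044 with the block) and GRM3 in molecular layer interneurons (0.0083 with RLE size factors, 0.0040 in nuclei with 1000 or more genes). Leaving out 1 library, the log2 fold changes ran from -0.13 to 0.36 for GRM2, -1.94 to 0.80 for GRM3, -0.73 to 1.56 for GRM4, -0.59 to 0.82 for GRM5 and -0.19 to 1.02 for GRM8 in the granule lineage. They ran from -1.33 to 0.68 for GRM3 in molecular layer interneurons, -0.56 to 0.50 for GRM5 in the oligodendrocyte lineage, -1.16 to 0.57 for GRM7 in astrocytes and -0.037 to 3.02 for GRM4 in microglia. The cause was not tested. Leaving out 1 of the 4 libraries cannot move a mean level by more than the SD between libraries, so nothing is read from it for the levels. Levels in the leading class of each receptor moved by less than this spread in nuclei with 1000 or more genes, with doublets removed and after thinning. Of all 126 levels in classes and stages, 7 moved by more with doublets removed and 12 after thinning. With 2 fetuses per group and few nuclei in some classes, depth limits GRM2 and the unipolar brush and choroid classes.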
